A study of Mus musculus with 5 samples.

Results

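Genes of smooth muscle, pericytes and fibroblast-type stroma were followed in ovarian granulosa cell preparations of mice. The set was chosen by symbol, with earlier results of these data known. It held 35 genes, of 18194 genes with a probe set annotated to 1 gene alone. It was made of 11 smooth muscle genes, 4 pericyte genes, 4 genes of mesenchymal cell surface proteins or transcription factors, and 16 genes of the fibroblast matrix. All 35 had at least 1 such probe set, 69 in all, and each gene was represented by its probe set of highest mean. Of the 35, 30 were at or above the floor on each of the 5 arrays, and Synpo2 was under it on all arrays but the one at 4 h.

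There were 5 groups with 1 array each. Knockout (KO) cells carried floxed CEBPα/β alleles (fl/fl for both genes) with Cyp19-cre and were collected 4, 8 and 24 h after hCG (human chorionic gonadotropin), a hormone used to trigger ovulation. Wild-type (WT) cells were collected at 8 and 24 h. Mice of both genotypes had first received equine chorionic gonadotropin (eCG) for 48 h, which drives follicle growth. Their age was 23 days in the 4 and 8 h groups, against 24 days in the 24 h groups. The transcription factors C/EBPα and C/EBPβ were the targets, and Cyp19-cre expresses the recombinase from the aromatase promoter, which is used in granulosa cells. The labels do not say whether cells of several animals were pooled for an array. The question was which genes need these factors during ovulation and luteinization. Of the targeted genes, Cebpa had 19 in KO and 685 in WT at 8 h, and 38 in KO and 352 in WT at 24 h. Cebpb had 1127 in KO and 7436 in WT at 8 h, and 85 in KO and 3976 in WT at 24 h. On the KO 4 h array Cebpa had 40 and Cebpb 42.

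Values are intensities, compared on the log2 scale. With 1 array per group no difference has a replicate check, and no p-value is given. Shares over all genes stand beside the counts for scale. They are not a test, because the set was chosen with earlier results of these data known. A gene counted as higher or lower when one intensity was 2-fold the other or more (1 on the log2 scale) and the larger reached a floor of 22, the 40th percentile of all values. Where the lower value was under that floor, the fold is against the floor and is written as "at least". Different probe sets of a gene gave log2 genotype differences with a technical spread (SD per probe set over all genes) of 0.28 at 8 h and 0.40 at 24 h. The median intensity was 54 on the KO 4 h array and 31 or 32 on the other 4, so the 4 h array was compared mainly after quantile normalization, with the counts on deposited values beside it. In a bulk preparation, fewer cells of a type and less RNA per cell cannot be told apart.

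Stroma surrounds the ovarian follicle. Outside its basement membrane lies the theca, with fibroblasts, capillaries wrapped by pericytes, and in its outer layer contractile cells that resemble smooth muscle. Granulosa cells lie inside the membrane. At ovulation the follicle wall contracts and its matrix is broken down, and at luteinization the membrane opens and vessels grow inward. All 13 granulosa cell markers measured were at or above the floor on every array, and 12 of them differed by less than 2-fold between the genotypes at 8 h and 13 at 24 h (Fst was lower in KO at 8 h).

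The stromal genes set 1 array apart from the others. Of 34 genes with a value at the floor on the arrays at 8 and 24 h, 27 had their highest value on the WT 8 h array, where the share over all genes was 19.9%. For 15 of them that value was at least 2-fold above each of the other 3 arrays, against 1.42% of all genes. The KO 8 h array was highest for 1 gene (Smtn), where the share over all genes was 21.1%, and at least 2-fold above each other array for 0, against 0.804%. The KO 24 h array was highest for 3 (Smpx, Tnxb and Fbln2), where the share was 30.9%, and at least 2-fold above the others for 1 (Tnxb), against 1.19%. The WT 24 h array was highest for 3 (Des, Cspg4 and Eln), where the share was 25.7%, and at least 2-fold above the others for 0, against 1.41%. The summed intensity of the 35 genes was 7620 on the KO 8 h array and 25290 on the WT 8 h array, and 9647 on the KO 24 h array and 13892 on the WT 24 h array. The genotype comparison at 8 h and the time comparison in WT both rest on this single WT 8 h array. The change of the genotype difference between the times uses it too.

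**Figure D1:**
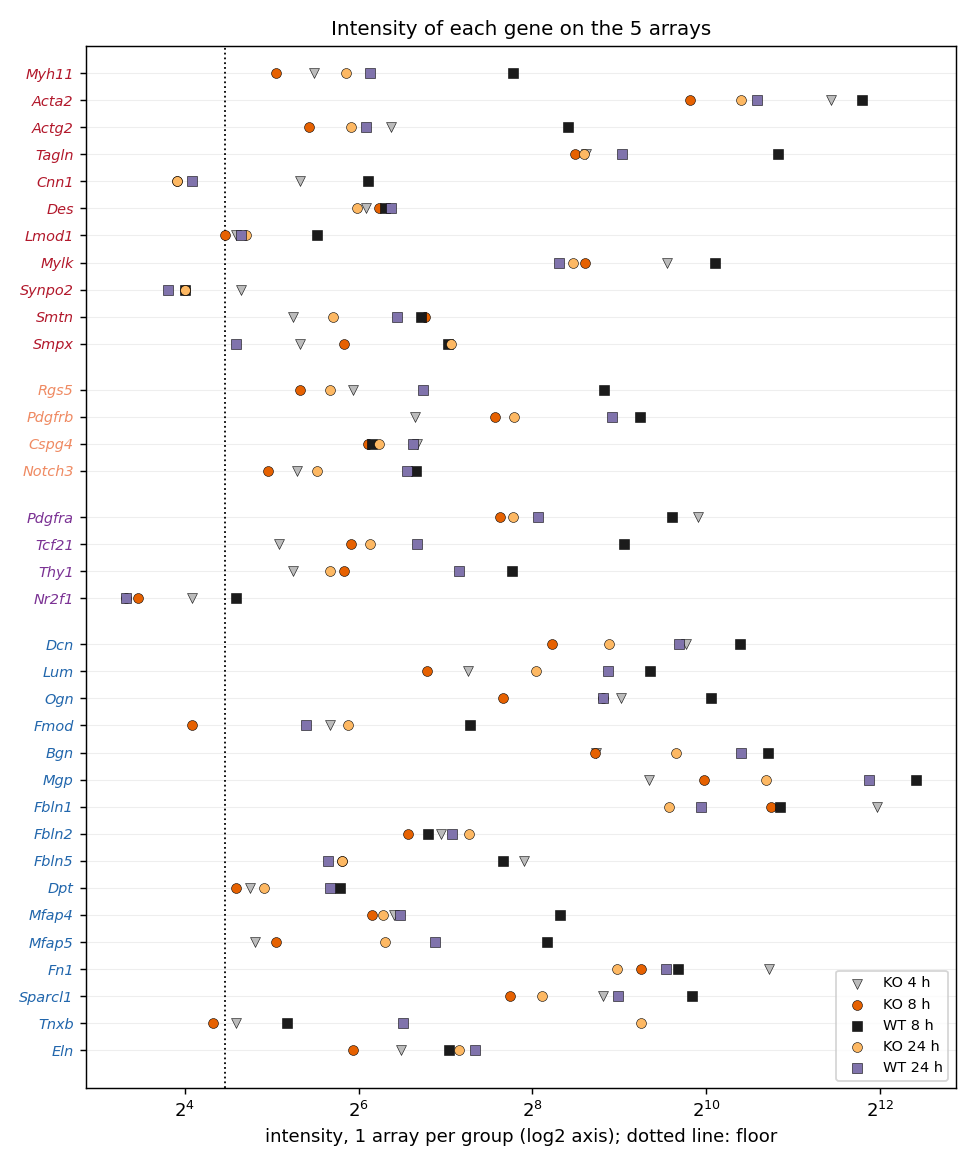
Intensity (log2 axis) of each of the 35 genes on the 5 arrays, 1 point per array, with gene names coloured by group (red smooth muscle, orange pericyte, purple mesenchymal, blue matrix) and the floor of 22 as a dotted line. The black squares of the WT 8 h array lie to the right for 27 of 34 genes among the arrays at 8 and 24 h, while Des, Cspg4 and Fbln2 cluster tightly and Tnxb is highest on the KO 24 h array.

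At 8 h after hCG, 27 of the 34 genes with a value at the floor were lower in KO and 0 were higher, where 4.05% of all genes tested were lower and 1.58% higher. The median log2 difference was -1.95 over the 34 genes and -0.01 over all genes tested. Both main groups took part. Among smooth muscle and pericyte genes 11 of 14 were lower with a median of -1.69, and among matrix genes 12 of 16 with a median of -2.04. The 4 mesenchymal genes were also called lower, of which Nr2f1 only through a WT value just above the floor, and when values below 22 were set to 22, 26 of the 27 calls were made (not Nr2f1). Other probe sets of 9 of these genes could be read, and 15 of 16 went the same way, 11 of them by at least 2-fold. Some of the 16 reached the floor only through WT, as in Rgs5 (12 in KO and 53 in WT) and Pdgfra (11 in KO and 27 in WT). The direction of those was fixed by the floor. Probe sets under the floor on both arrays, as in Myh11 (11 in KO and 12 in WT), were not counted.

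Genes of contractile smooth muscle proteins were lower in KO at 8 h. Myh11, the smooth muscle myosin heavy chain, had an intensity of 33 in KO and 219 in WT, 6.64-fold lower. Actg2, the enteric smooth muscle actin, had 43 in KO and 339 in WT, 7.88-fold lower. Tagln, an actin-binding protein also called SM22, had 359 in KO and 1811 in WT, 5.04-fold lower. These genes mark mature contractile cells, and on each of them the KO array was far under the WT array. Acta2, the α-actin of smooth muscle, had 899 in KO and 3538 in WT, 3.94-fold lower, on a probe set that can match related transcripts (its name ends in _s_at). The other Acta2 probe sets were under the floor on all arrays and read 11 and 10 in KO against 8 and 9 in WT at 8 h, so the difference rests on a single probe set. Mylk, the kinase that switches on smooth muscle myosin, was lower on both of its brighter probe sets, with 390 in KO and 1098 in WT on one and 272 in KO and 1060 in WT on the other. Cnn1, calponin, had 15 in KO and 69 in WT, at least 3.14-fold lower, and Lmod1, an actin filament nucleator, had 22 in KO and 46 in WT, 2.09-fold lower. Smpx, a small protein known from striated muscle, had 57 in KO and 131 in WT, 2.30-fold lower.

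Not every muscle gene followed. Des, the intermediate filament desmin, had 75 in KO and 79 in WT, and Smtn, smoothelin, had 109 in KO and 105 in WT, log2 differences of -0.07 and 0.05. Synpo2, an actin-bundling protein, read 16 in both and is not counted. Des and Smtn thus lay within the technical spread at 8 h.

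For 22 of the 35 genes the RefSeq promoter table of build GRCm38.p6 holds a sequence, 25 in all, each from 250 bases before to 50 bases after a gene's start. In many smooth muscle genes, serum response factor binds a CArG box and TEAD factors bind the MCAT element (GGAATG or its reverse complement). The promoters of the 4 genes that were lower at 8 h and hold GGAATG on either strand are shown, 3 of contractile genes and 1 of a matrix gene, with matches to GGAATG and to the CArG box with 1 G or C among its central letters in capitals.
Acta2, chr19:34255324-34255623, minus strand: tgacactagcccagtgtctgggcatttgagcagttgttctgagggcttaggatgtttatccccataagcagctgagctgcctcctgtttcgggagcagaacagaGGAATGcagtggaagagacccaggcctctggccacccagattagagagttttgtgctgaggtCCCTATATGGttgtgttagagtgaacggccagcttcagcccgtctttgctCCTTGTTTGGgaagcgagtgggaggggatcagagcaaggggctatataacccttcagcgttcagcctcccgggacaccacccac
Lmod1, chr1:135324563-135324862, plus strand: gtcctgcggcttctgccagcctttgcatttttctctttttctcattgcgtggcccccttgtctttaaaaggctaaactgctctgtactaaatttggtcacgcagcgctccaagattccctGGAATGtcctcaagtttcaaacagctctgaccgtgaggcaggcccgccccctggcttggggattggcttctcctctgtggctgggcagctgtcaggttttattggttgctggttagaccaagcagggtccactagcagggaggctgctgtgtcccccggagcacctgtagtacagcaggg
Mylk, chr16:34784700-34784999, plus strand: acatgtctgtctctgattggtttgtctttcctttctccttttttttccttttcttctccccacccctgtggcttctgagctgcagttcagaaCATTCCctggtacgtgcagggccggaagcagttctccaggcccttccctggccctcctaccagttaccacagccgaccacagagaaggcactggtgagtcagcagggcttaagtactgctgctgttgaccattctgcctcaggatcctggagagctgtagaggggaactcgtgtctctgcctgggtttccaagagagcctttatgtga
Ogn, chr13:49607765-49608064, plus strand: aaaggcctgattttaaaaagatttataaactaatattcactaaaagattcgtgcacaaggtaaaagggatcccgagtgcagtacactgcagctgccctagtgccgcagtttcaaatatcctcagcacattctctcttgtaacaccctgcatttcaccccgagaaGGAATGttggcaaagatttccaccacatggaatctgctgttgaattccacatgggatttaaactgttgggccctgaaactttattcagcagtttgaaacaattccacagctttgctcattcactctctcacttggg
In the Acta2 promoter the capitals mark GGAATG from position -146 to -141, CCCTATATGG from -84 to -75 and CCTTGTTTGG from -34 to -25, counted back from the gene's start. The complete CArG box, searched on both strands, was in 0 of the 25 promoters and in 1.63% of all 32851 promoters in the table. A count of 0 is near that share. Myh11, Actg2 and Tagln had no sequence in the table and were not searched. The box with 1 G or C was in 2 of 25, those of Acta2 and Fbln2, and in 8.5% of all. Fbln2 was among the genes that did not pass at 8 h. GGAATG was in 5 of 25, those shown and that of Smtn, which did not pass at 8 h, and in 14.7% of all. TTGCNNAA, a pattern that holds 1 half-site of the C/EBP recognition sequence and was searched on both strands, was in 4 of 25 (Pdgfra, Nr2f1, Fmod and Dpt) and in 10.8% of all. The counts of these patterns were near their shares over all promoters and were not tested. None of the patterns overlapped another in the promoters shown.

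Pericyte genes had the largest single difference. Rgs5, a regulator of G protein signalling that marks pericytes, had 40 in KO and 453 in WT at 8 h, 11.3-fold lower. Its other 3 probe sets also read lower in KO, with each KO value under the floor. Pdgfrb, the PDGF receptor through which pericytes are recruited to vessels, had 190 in KO and 603 in WT, 3.17-fold lower, with 55 in KO and 147 in WT on its second probe set. Notch3, the Notch receptor of mural cells, had 31 in KO and 101 in WT, 3.26-fold lower. That value rests on an _s_at probe set, and the other Notch3 probe set was under the floor at 8 and 24 h in both genotypes. Cspg4, the NG2 proteoglycan of pericytes, gave no such difference on its brighter probe set, with 69 in KO and 71 in WT, but had 27 in KO and 56 in WT on the other. Its 2 probe sets therefore disagree.

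Of the 4 genes of mesenchymal identity, 3 were clearly above the floor in WT at 8 h and lower in KO. Tcf21, a transcription factor of mesenchymal progenitors, had 60 in KO and 533 in WT, 8.88-fold lower. Pdgfra, the PDGF receptor of fibroblasts, had 197 in KO and 779 in WT, 3.95-fold lower, and Thy1, a surface glycoprotein of fibroblasts and some lymphocytes, had 57 in KO and 217 in WT, 3.81-fold lower. Nr2f1, an orphan nuclear receptor, had 11 in KO and 24 in WT, so that it passed only through a WT value just above the floor and is at least 1.09-fold lower.

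Small leucine-rich proteoglycans, which bind collagen fibrils and set their spacing, made up 5 of the 16 matrix genes. Decorin (Dcn) had 299 in KO and 1340 in WT at 8 h, 4.48-fold lower, and lumican (Lum) 110 in KO and 653 in WT, 5.94-fold lower. Ogn (osteoglycin) had 203 in KO and 1062 in WT, 5.23-fold lower, and its second probe set had 93 in KO and 716 in WT. All 5 were lower, and their further probe sets at the floor also read lower in KO, although 2 of Fmod did so by less than 2-fold. Of these 2, 1 (16 in KO and 29 in WT) reached the floor only through WT. Bgn (biglycan) had 423 in KO and 1674 in WT, 3.96-fold lower, and Fmod (fibromodulin) 17 in KO and 155 in WT, at least 7.05-fold lower. Some of these genes lie side by side in the RefSeq table. Dcn and Lum are neighbours on chromosome 10, next to Kera, which was under the floor on all arrays. Ogn lies on chromosome 13 beside Omd and Aspn. Omd had 239 in KO and 241 in WT at 8 h, while Aspn had 11 in KO and 54 in WT, at least 2.45-fold lower. Prelp, beside Fmod on chromosome 1, had 36 in KO and 38 in WT. Neighbouring proteoglycan genes thus did not all differ alike.

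Secreted proteins of microfibrils and elastic fibres split. Mfap5 (8.70-fold, 33 in KO and 287 in WT) and Mfap4 (4.51-fold, 71 in KO and 320 in WT), both microfibril-associated, were lower in KO. Fbln5, a fibulin needed to assemble elastic fibres, had 56 in KO and 202 in WT, 3.61-fold lower, and Eln, elastin itself, had 61 in KO and 132 in WT, 2.16-fold lower. Eln differed on only 1 of its 2 probe sets, the other reading 41 in KO and 40 in WT. Fbln1 and Fbln2, the other fibulins in the set, did not pass, with 1710 in KO and 1845 in WT for Fbln1 and 95 in KO and 111 in WT for Fbln2. The 3 fibulins were therefore not of one kind on these arrays. Of the remaining matrix genes, Mgp, matrix Gla protein, an inhibitor of calcification, had 1004 in KO and 5454 in WT, 5.43-fold lower. Sparcl1, a secreted relative of SPARC, had 214 in KO and 914 in WT, 4.27-fold lower, and Dpt, dermatopontin, had 24 in KO and 55 in WT, 2.29-fold lower. Fn1, fibronectin, had 607 in KO and 818 in WT, a log2 difference of -0.43 that did not pass. Tnxb, tenascin-X, had 20 in KO and 36 in WT, a log2 difference of -0.85 as deposited, with the KO value under the floor, that did not pass either.

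**Figure D2:**
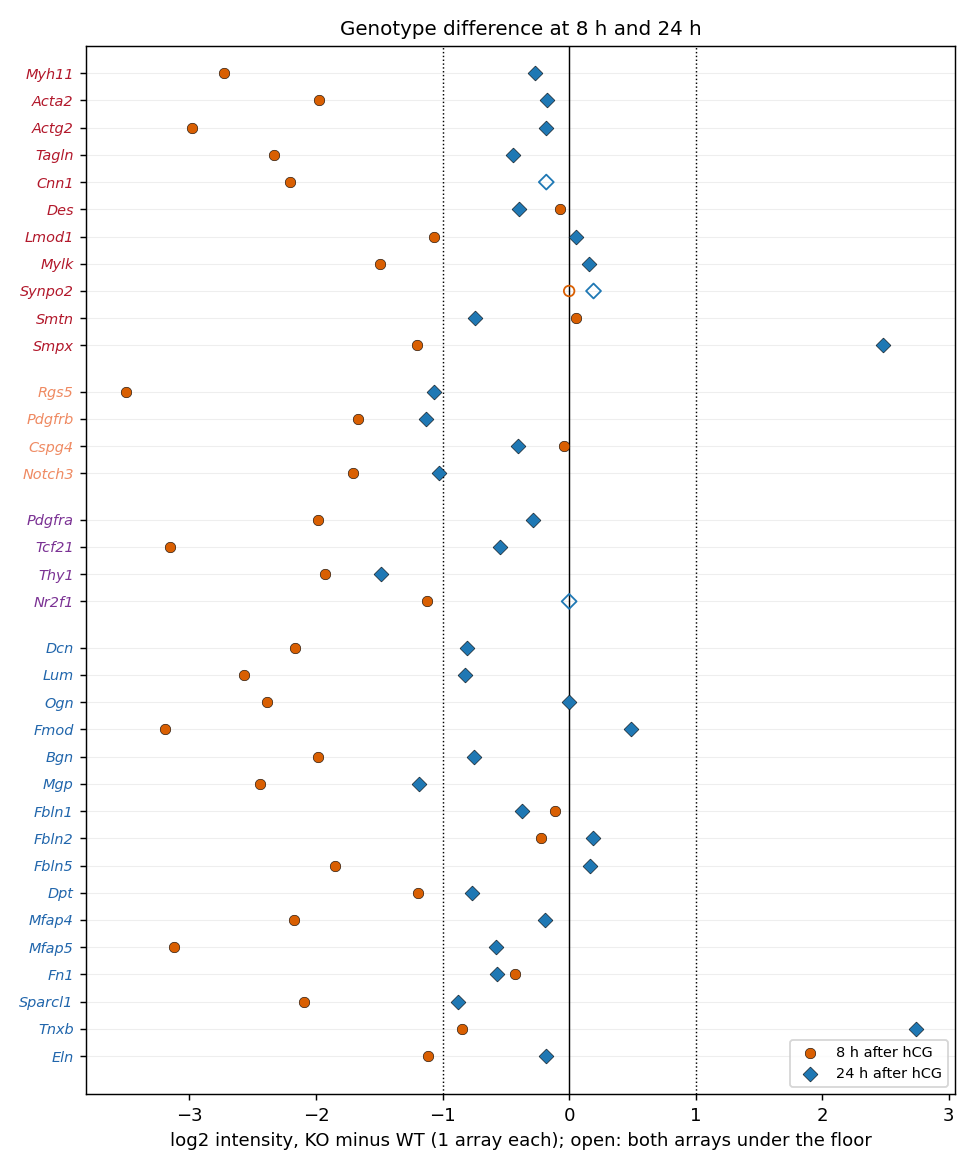
Log2 intensity difference, KO minus WT, of each gene at 8 h (orange circles) and 24 h (blue diamonds), 1 array per group, with dotted lines at 2-fold and open symbols where both arrays were under the floor. At 8 h 27 genes lie left of -1, from Rgs5 at -3.50 to Lmod1 at -1.06, while at 24 h 5 genes lie left of -1 and Smpx (2.48) and Tnxb (2.74) lie right of 1.

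At 24 h, 5 of 32 genes were lower in KO and 2 higher, where 3.92% of all genes tested were lower and 3.13% higher. The median log2 difference was -0.40 over the 32 genes, against 0.05 over all genes tested. None of the 9 smooth muscle genes at the floor was lower, and Smpx was higher. Myh11 had 58 in KO and 70 in WT, Actg2 60 in KO and 68 in WT, Acta2 1356 in KO and 1532 in WT, and Mylk 354 in KO and 317 in WT. Lmod1 had 26 in KO and 25 in WT, and Des 63 in KO and 83 in WT. These 6 differed by no more than the technical spread, while Tagln (386 in KO and 524 in WT) and Smtn (52 in KO and 87 in WT) differed by more than it, with log2 differences of -0.44 and -0.74 that did not pass. The 5 genes that were lower were Rgs5, Pdgfrb, Notch3, Thy1 and Mgp, and all 5 had also been lower at 8 h. They make up 18.5% of the 27 genes lower at 8 h and 100% of the 5 lower at 24 h. Over all genes, those lower at both times (1.08% of the genes tested) make up 26.2% of the genes lower at 8 h and 26.8% of those lower at 24 h. Rgs5 had 51 in KO and 107 in WT, 2.10-fold lower. Pdgfrb had 221 in KO and 483 in WT, 2.19-fold lower, and Notch3 had 46 in KO and 94 in WT, 2.04-fold lower. These 3 pericyte genes lay close to the threshold, and none of them passed with the mean of all its probe sets. Thy1 had 51 in KO and 143 in WT, 2.80-fold lower, and Mgp had 1652 in KO and 3759 in WT, 2.28-fold lower.

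Most other matrix genes kept the direction of 8 h at 24 h without passing. Lum had 264 in KO and 466 in WT, Dcn 473 in KO and 827 in WT, Bgn 803 in KO and 1352 in WT, and Sparcl1 276 in KO and 507 in WT, log2 differences between -0.88 and -0.75. Over the 16 matrix genes 11 lay below 0, with a median of -0.47. Of the 13 smooth muscle and pericyte genes at the floor 10 lay below 0, with a median of -0.40, near that of the matrix genes. Taken apart, the smooth muscle genes had a median of -0.18 and the pericyte genes one of -1.05. Ogn read 449 in both genotypes on the probe set used, but 130 in KO and 315 in WT on its second probe set, so its probe sets disagree at 24 h.

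Smpx and Tnxb went the other way at 24 h. Tnxb, a tenascin of connective tissue, had 607 in KO and 91 in WT, 6.67-fold higher. Smpx had 134 in KO and 24 in WT, 5.58-fold higher, although it had been 2.30-fold lower at 8 h. Each has 1 probe set, so neither value has a second reading on these arrays.

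**Figure D3:**
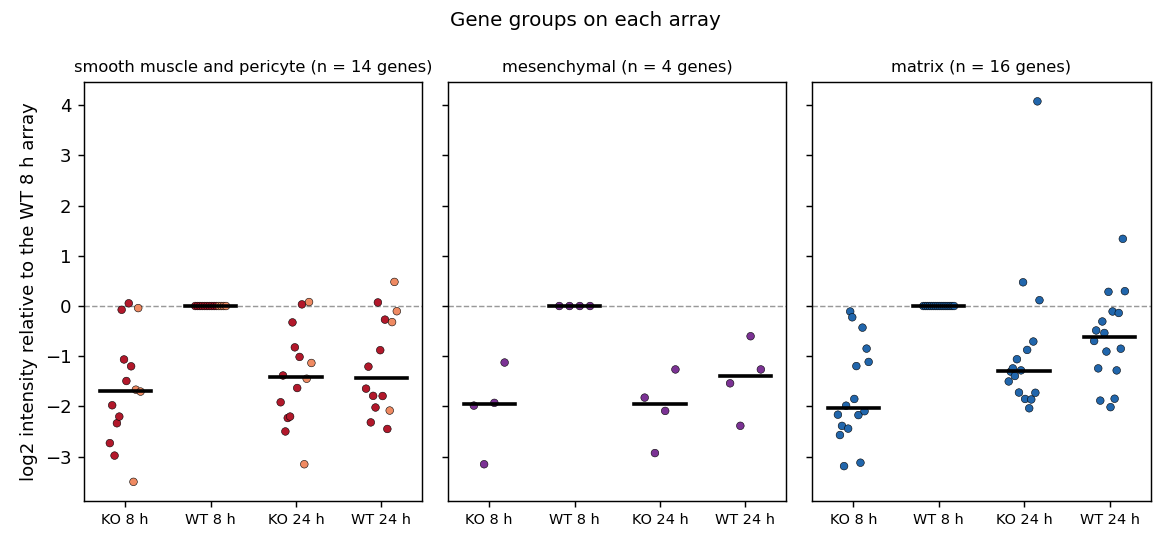
Log2 intensity of each gene relative to its own value on the WT 8 h array, for the KO 8 h, WT 8 h, KO 24 h and WT 24 h arrays, with 14 smooth muscle and pericyte genes (red and orange), 4 mesenchymal genes (purple) and 16 matrix genes (blue). Black bars are medians relative to the WT 8 h array. For smooth muscle and pericyte genes they are -1.42 on the KO 24 h and -1.43 on the WT 24 h array. For matrix genes they are -1.29 on the KO 24 h and -0.62 on the WT 24 h array. Taken gene by gene, the median KO minus WT difference at 24 h was alike, -0.40 for smooth muscle and pericyte genes and -0.47 for matrix genes.

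The change from 8 to 24 h was compared within each genotype. In KO, 2 of 32 genes were lower at 24 h than at 8 h and 7 higher, where 5.26% of all genes were lower and 6.85% higher. There the smooth muscle and pericyte genes had a median of 0.24 with 1 of 13 higher and 1 lower, and the matrix genes a median of 0.71 with 6 of 16 higher and 1 lower. In WT, 16 of 34 genes were lower at 24 h than at 8 h and 1 higher, where 6.45% of all genes were lower and 5.55% higher. There smooth muscle and pericyte genes had 8 of 14 lower and a median of -1.43, and matrix genes 5 of 16 lower and 1 higher and a median of -0.62. The KO and WT time changes use separate arrays. Values of the groups overlapped in both genotypes, and the difference between the groups was not tested. With the mean of all probe sets the WT medians lay closer, at -0.80 for smooth muscle and pericyte genes and -0.55 for matrix genes.

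In KO the contractile genes other than Smpx and Smtn did not pass in either direction. Myh11 was at 58 at 24 h and 33 at 8 h, a log2 change of 0.81, and Acta2 at 1356 and 899, a log2 change of 0.59. Actg2 was at 60 and 43, Tagln at 386 and 359, and Mylk at 354 and 390. Outside the set, Myl9 was 4.29-fold higher, at 553 and 129. The matrix genes that were higher included Lum (264 at 24 h and 110 at 8 h, 2.40-fold), Mfap5 (79 and 33, 2.39-fold), Eln (143 and 61, 2.34-fold), Ogn (449 and 203, 2.21-fold) and Fmod (59 and 17, at least 2.68-fold). Tnxb was at least 27.6-fold higher, at 607 and 20, and Smpx 2.35-fold higher, at 134 and 57. Fbln1 (759 and 1710, 2.25-fold) and Smtn (52 and 109, 2.10-fold) were lower at 24 h in KO. Eln, Ogn, Fmod, Mfap5 and Fbln1 did not pass with the mean of their probe sets.

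In WT the fall was steep for Smpx (24 at 24 h and 131 at 8 h, 5.46-fold), Tcf21 (102 and 533, 5.23-fold), Actg2 (68 and 339, 4.99-fold) and Rgs5 (107 and 453, 4.23-fold). Fbln5 (50 and 202, 4.04-fold), Fmod (42 and 155, 3.69-fold) and Mfap4 (89 and 320, 3.60-fold) were the matrix genes that fell furthest. Ogn (449 and 1062, 2.37-fold) was lower too. Mgp (3759 and 5454), Bgn (1352 and 1674), Lum (466 and 653), Dpt (51 and 55), Pdgfrb (483 and 603) and Notch3 (94 and 101) stayed within 2-fold. Des (83 and 79) and Smtn (87 and 105) also stayed within 2-fold. Genes within 2-fold and genes that fell were thus found in both the muscle and the matrix group. Tnxb was higher at 24 h in WT, with 91 against 36, 2.53-fold.

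**Figure D4:**
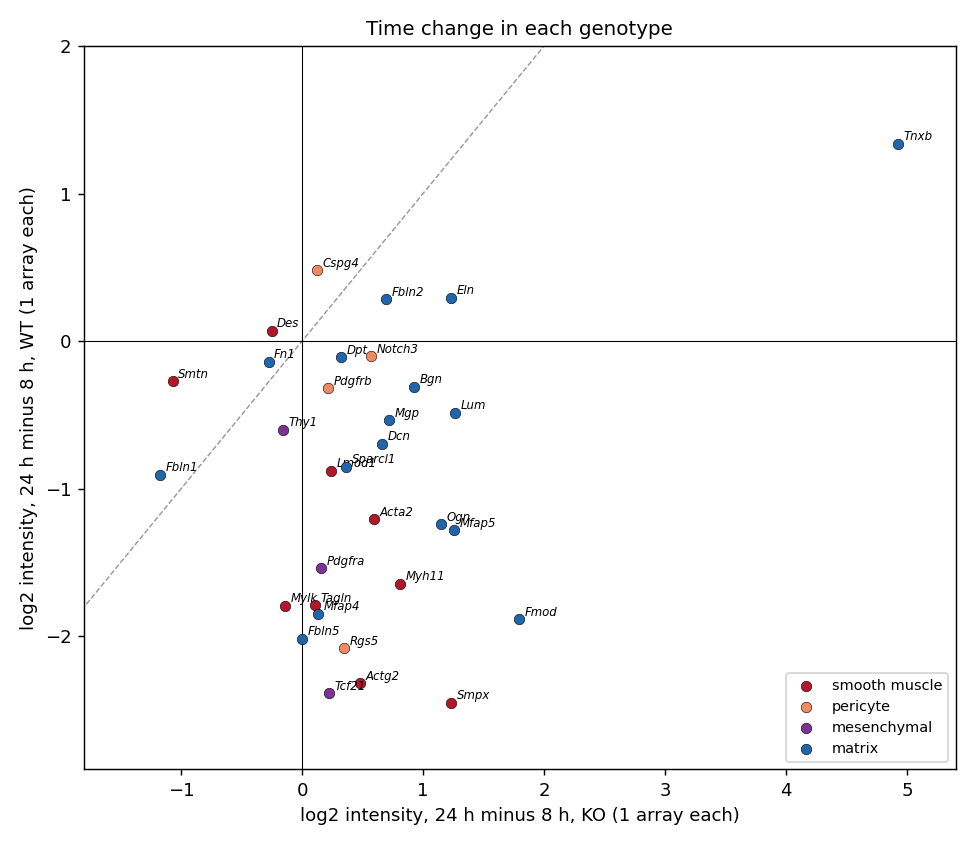
Log2 intensity change from 8 to 24 h in KO (x axis) and WT (y axis), 1 point per gene at the floor in both comparisons, with equal changes along the dashed line. Actg2 (0.48 in KO and -2.32 in WT) lies low and Lum (1.26 in KO and -0.49 in WT) lies to the right, but the groups overlap, with the matrix genes Fbln5 and Mfap4 low and Myh11 to the right. Tnxb (4.92 in KO, with a KO 8 h value under the floor, and 1.34 in WT) lies apart.

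The genotype difference itself changed between the times for 23 of 34 genes by at least 2-fold, upward in all 23, where 5.04% of all genes changed upward and 3.09% downward. The median change was 1.51 over these 34 genes and 0.07 over all genes. When values below 22 were set to 22, 22 of the 23 passed (not Nr2f1). On that scale the changes were 3.68 for Smpx, 3.45 for Tnxb, 3.31 for Fmod, 2.80 for Actg2, 2.61 for Tcf21 and 2.54 for Mfap5. The value of Fmod rests on an _x_at probe set, and its change was 1.55 without such probe sets. Pdgfrb (0.54), Notch3 (0.67), Thy1 (0.44) and Dpt (0.43) were among the 11 that changed less. These values come from 4 single arrays, the WT 8 h array among them, and have no error. The change is therefore not separate from the 8 h genotype difference or the WT time change.

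The array order bears on the 8 h result. With the WT 24 h array in place of the WT 8 h array, a comparison across times made after the values were seen, 16 of 32 genes were lower on the KO 8 h array and 1 higher, where 8.56% of all genes were lower and 6.72% higher. Of those 16, 11 were matrix genes, among them Lum, Mgp, Bgn, Dcn and Mfap5, and the others were Myh11, Rgs5, Pdgfrb, Notch3 and Thy1. In the reverse pairing, 25 of 34 genes were lower on the KO 24 h array than on the WT 8 h array and 1, Tnxb, was higher, where 7.28% of all genes were lower and 6.32% higher. Actg2, Acta2, Tagln and Mylk were not among the 16 genes lower on the KO 8 h array than on the WT 24 h array.

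The KO 4 h array can be set only against the KO 8 h array. After quantile normalization 7 of 33 genes were higher at 8 h than at 4 h and 2 lower, where 17.9% of all genes were higher and 11.9% lower, so the share lay near that of all genes. As deposited, 1 gene was higher and 10 were lower, and the median of all genes was -0.78, against 0.08 after normalization. Pdgfra, with 197 at 8 h and 957 at 4 h as deposited, and Fbln5, with 56 and 239, were lower at 8 h on either scale. Neither passed with the mean of all its probe sets. The technical spread of this comparison after normalization was 0.88 on the log2 scale, close to the 2-fold threshold. Smtn, with 109 at 8 h and 38 at 4 h, was higher on either scale.

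Some markers of other cell types also differed on the same arrays. For scale, 4.05% of all genes were lower in KO and 1.58% higher at 8 h. At 24 h these shares were 3.92% lower and 3.13% higher. Of 13 endothelial markers at the floor at 8 h, 12 were lower in KO, with summed intensities of all 14 of 744 in KO and 2364 in WT. At 24 h 3 of 13 were lower (Emcn, Cldn5 and Cdh5), with sums of 804 in KO and 1527 in WT. Of 7 theca markers 1 was lower at 8 h (Cyp17a1), with sums of 10754 in KO and 19198 in WT. Hsd3b1, with 6759 in KO and 12490 in WT, made up most of both sums and did not pass. At 24 h Aldh1a1 alone passed and was higher, with theca sums of 26242 in KO and 22762 in WT. Of 11 leukocyte markers 2 were lower and 1 higher at 8 h, with sums of 923 in KO and 1374 in WT, and Itgam was under the floor on every array. At 24 h 4 of 11 leukocyte markers were lower and 0 higher, with sums of 1288 in KO and 2054 in WT. Granulosa marker sums were 53752 in KO and 54098 in WT at 8 h, and 74334 in KO and 73323 in WT at 24 h. Oocyte, surface epithelium and erythroid sums at 8 h were 4293, 2491 and 159 in KO, against 4925, 1506 and 326 in WT, and Hba-a1 was under the floor on every array. Of 8 oocyte markers 0 passed at either time. Of 8 surface epithelium markers 2 were higher (Krt8 and Krt18) and 0 lower at 8 h, and 1 was lower (Krt7) and 0 higher at 24 h. The erythroid sums rest mainly on Alas2, with 117 in KO and 280 in WT at 8 h, while Slc4a1 had 33 in KO and 38 in WT. The part of other cells in the differences of the stromal genes was not tested.

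Further contractile genes followed the set only in part. Of 18 at the floor, 8 were lower in KO at 8 h and 0 higher, with a median of -0.61. Over all genes 4.05% were lower and 1.58% higher. Myl9, the regulatory light chain of smooth muscle myosin, had 129 in KO and 784 in WT, 6.08-fold lower, and Ppp1r14a, an inhibitor of myosin phosphatase, had 84 in KO and 382 in WT, 4.55-fold lower. At 24 h 3 of 18 were lower, where 3.92% of all genes were. Ppp1r14a had 119 in KO and 1814 in WT, 15.2-fold lower, and Cnn2, a calponin found outside muscle too, was 2.85-fold lower. Ppp1r14a was thus lower at both times while Myl9, at 553 in KO and 318 in WT, was not at 24 h.

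Of 10 regulators of muscle genes at the floor at 8 h, 0 were lower, where 4.05% of all genes were lower, so a count of 0 is near that share. Klf4, a factor that represses smooth muscle genes, was 2.36-fold higher, and the median was 0.01. Srf, the factor that binds CArG boxes, had 277 in KO and 214 in WT, and its coactivator Myocd, myocardin, had 66 in KO and 73 in WT. At 24 h Mrtfb, a related coactivator, had 637 in KO and 317 in WT, 2.01-fold higher. Among 9 genes of PDGF and Notch ligands and of other Notch receptors at 8 h none passed, with a median of -0.05. At 24 h Pdgfb, the endothelial ligand of PDGF receptor β, had 126 in KO and 276 in WT, 2.19-fold lower, and Pdgfa had 380 in KO and 173 in WT, 2.20-fold higher.

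Other elastic fibre genes had 5 of 11 lower and 0 higher at 8 h, where 4.05% of all genes were lower and 1.58% higher. Their median was -0.79. The crosslinking enzyme gene Lox had 321 in KO and 1196 in WT, 3.73-fold lower, and Emilin1, a glycoprotein at the elastin and microfibril interface, had 47 in KO and 147 in WT, 3.13-fold lower. At 24 h only Efemp1 of the 11, a further fibulin, was lower, where 3.92% of all genes were. Efemp1 had 221 in KO and 655 in WT, 2.96-fold lower. Of 8 other proteoglycan genes Aspn alone was lower at 8 h, where 4.05% of all genes were. At 24 h Aspn and Sdc1, syndecan-1, with 1652 in KO and 7400 in WT, were lower, where 3.92% of all genes were. Aspn, with 11 in KO and 28 in WT at 24 h, passed only through a WT value just above the floor and is at least 1.27-fold lower. In the TGFβ list 2 of 13 were lower and 1 higher at 8 h, where 4.05% of all genes were lower and 1.58% higher. Ccn2, a matricellular protein induced by TGFβ, had 4602 in KO and 2045 in WT at 8 h, 2.25-fold higher. At 24 h Ccn2 had 1638 in KO and 755 in WT, 2.17-fold higher. Tgfbi, a secreted protein induced by TGFβ, had 96 in KO and 230 in WT at 8 h, 2.40-fold lower, and Tgfbr3, a TGFβ coreceptor, had 504 in KO and 1138 in WT, 2.26-fold lower.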

How the data were processed

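Granulosa cell RNA of 5 groups of mice was measured, 1 array each, and samples were grouped by title. Per the labels' protocols, RNA came from RNeasy columns and 5 ug of it went into biotinylated cRNA. The authors' deposited intensities are whole numbers on a linear scale; affy and RMA are listed, without versions, per the submitters' processing notes. No genome build is named there.

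Log2 values were taken with numpy 2.4.6 and pandas 2.3.3. Of 45101 probe sets, 34958 had 1 gene symbol in the platform annotation and were used. Genes were called at 2-fold with the larger value at or above 22, and this rule was tested on simulated data. The simulation held no differences between animals, so it is no check of the calls on these single arrays. The KO 8 h and 4 h arrays were compared after quantile normalization of the 5 arrays, the others as deposited. The number of arrays limits the precision, and no scanner files were used, so background correction was not varied. Promoters came from RefSeq (GRCm38.p6). Alternatives were the probe set choice, floor, fold and scaling. The 35 genes, their groups and the further lists were chosen with earlier results of these data known. All 35 genes are named, and of the further lists at most the 2 of largest difference in a comparison, or all where 2 or fewer passed. Genes named beside these (Srf, Myocd, Omd, Prelp, Kera and the single markers) were chosen for their function or position or after their values were seen.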

Additional observations from a re-analysis of the deposited data

Results flagged for a closer look

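Smpx and Tnxb were marked because their genotype differences pointed in opposite directions at 8 and 24 h and passed the 2-fold rule at 24 h. Fmod, Fbln5, Fbln2, Mylk and Lmod1 also changed sign upward but did not pass at 24 h. Smtn changed sign downward, from 0.05 at 8 h to -0.74 at 24 h, and did not pass either. The log2 difference of Smpx, KO minus WT, was -1.20 at 8 h and 2.48 at 24 h, a change of 3.68, with 57 in KO and 131 in WT at 8 h and 134 in KO and 24 in WT at 24 h. That of Tnxb was -0.85 at 8 h and 2.74 at 24 h, a change of 3.59 as deposited. Its KO 8 h value of 20 is under the floor of 22, and with that value raised to the floor the change was 3.45. Only its 24 h difference passed. Each group has 1 array and each gene 1 probe set, and the difference between the times was not tested.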

How the results depend on the processing

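No paired analysis was possible because each group has 1 array, and for the same reason no replicate could be left out. Centring and quantile normalization left all 27 calls at 8 h, 7 at 24 h, 9 and 17 over time in KO and WT, and 23 changes of the genotype difference in place. With the mean of all probe sets, 24 of the 27 calls at 8 h were made (not Acta2, Fbln5 and Eln), and 4 of 7 at 24 h, with 2 genes lower. The medians at 8 h were then -1.23 for smooth muscle and pericyte genes and -1.34 for matrix genes, and for smooth muscle and pericyte genes they were -0.80 for the time change in WT and 1.13 for the change of the genotype difference. Over time in KO 1 was lower and 4 higher, and from 4 to 8 h 0 were lower. At a 3-fold threshold no gene was lower at 24 h (0), none higher over time in WT (0), 0 lower and 2 higher over time in KO, and 0 lower and 3 higher from 4 to 8 h. With the floor at the 60th percentile 4 were higher from 4 to 8 h, and as deposited 10 were lower and 1 higher. With the WT 24 h array in place of the WT 8 h array, an alternative chosen after seeing the data, 16 were lower and 1 higher. When values below 22 were set to 22, also chosen after seeing the data for these counts, Nr2f1 alone was lost at 8 h, over time in WT and in the change of the genotype difference. Without _x_at and _s_at probe sets 25 of the 27 calls at 8 h (not Acta2 and Notch3) and 6 of 7 at 24 h (not Notch3) were made, and Acta2 reversed to 0.15 for the KO difference at 8 h, 0.15 for the time change in WT and -0.30 for the change of the genotype difference, on a probe set under the floor. Values near the floor are coarse, since intensities are whole numbers.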
